A study of Drosophila melanogaster with 4 samples.

Results

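The 434 regions described here are the γH2AvD regions that the deposited lists place on U and Uextra, of 1926 regions in the 3 lists as a whole. Every region on these 2 scaffolds with a false discovery rate (FDR) from the caller within its cut-off of 0.1 was kept, which gave 12 of the 297 regions called in wild-type (WT) ChIP over WT input, 376 of the 1563 called in dH1 RNAi ChIP over dH1 RNAi input, and 46 of the 66 called directly in dH1 RNAi ChIP over WT ChIP. U held 2, 67 and 6 of them and Uextra 10, 309 and 40. The members were chosen by position alone.

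U and Uextra are not chromosomes. In the dm3 build of the Drosophila genome they hold assembled pieces that had no place on a chromosome, joined end to end in an arbitrary order, and much of this sequence is repeats such as transposon remnants and satellite DNA from heterochromatin. Uextra holds the shorter and less reliable pieces. H2Av is the Drosophila histone variant that combines the roles of H2A.Z and H2A.X, and its phosphorylated form, γH2AvD, marks chromatin around DNA breaks. The linker histone dH1 binds DNA at the entry and exit of the nucleosome, compacts chromatin and is known in flies for a role in keeping heterochromatic repeats silent. A read from a repeat can match many copies, so that regions of U and Uextra may share reads with each other and with regions elsewhere.

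γH2AvD was immunoprecipitated with a rabbit antibody from S2 cells, an established Drosophila cell line, and the 4 libraries were WT ChIP, WT input, dH1 RNAi ChIP and dH1 RNAi input, with 1 library in each group. The dH1 RNAi cells, whose genotype label is dH1 depletion, received 100 µg of double-stranded RNA against dH1 on days 1, 4 and 7 of an 8 day incubation. That treatment text stands under the WT samples too, and a control double-stranded RNA is not named, so that the loss of dH1 and the treatment itself cannot be told apart. Neither the dH1 level nor the depth of any library is given in the sources used here, the counts are not scaled by depth, and a ratio of ChIP to control reads describes regions of its own list. Since no group was replicated, no test between conditions was made. Intervals are exact 95% intervals and cover counting error only, because each group had 1 library. Reads copied by PCR and carrying no molecular identifier do not each stand for a molecule, which these intervals do not cover. The names of the lists carry the label markdup, and how duplicate reads entered the counts was not checked here. Intervals over regions also take each region as independent, and are too narrow where regions share reads.

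The 12 WT regions of unplaced sequence fell into a set with few input reads and a set with many. At 3845901 to 3847000 of Uextra the WT ChIP held 194 reads and the WT input 36, a ratio of 5.39 (3.76 to 7.92). At 15327901 to 15329000 of Uextra 253 ChIP reads stood over 57 in the input, which gives 4.44 (3.32 to 6.03). These were the highest ratios of WT unplaced sequence, where the median was 2.24 against 2.68 in the other sequence of the WT list, with overlapping intervals of the median (1.26 to 3.24 and 2.53 to 2.85).

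Both WT regions of U were narrow and carried few reads. The region at 3442751 to 3443400 had a ratio of 3.24 (2.18 to 4.90), from 110 ChIP reads over 34 in the input, and the one at 9341401 to 9341950 had 108 and 38, a ratio of 2.84 (1.95 to 4.23). They were 650 bp and 550 bp wide. The WT list starts at a width of 550 bp and at 107 ChIP reads, so both lay close to the smallest regions it holds.

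A further 4 Uextra regions had between 59 and 76 WT input reads and similar ratios. They held 140 ChIP reads at 890301 to 891100, 166 at 2106901 to 2107750, 167 at 9202151 to 9203050 and 143 at 19867901 to 19868550. Their ratios lay between 2.13 and 2.37, and each interval lay above 1.

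The last 4 WT regions had more input reads and lower ratios. At 2163201 to 2164100 of Uextra the ratio was 1.50 (1.23 to 1.83), from 257 ChIP and 171 input reads. The input held more than 200 reads at 3 of the 12 regions (25%, 5.49 to 57.2), against 2.36% of the whole WT list. They were 22426201 to 22427150 with 413 ChIP and 327 input reads, 13998451 to 13999150 with 437 and 378, and 25090351 to 25091050 with 448 and 391. The ratios of these 3 were 1.26, 1.16 and 1.15, and at 25090351 to 25091050 the interval (0.998 to 1.32) held 1. All 12 regions carried the same FDR of 0.043 from the caller, the highest in the WT list, so the caller's FDR does not separate them.

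**Figure D1:**
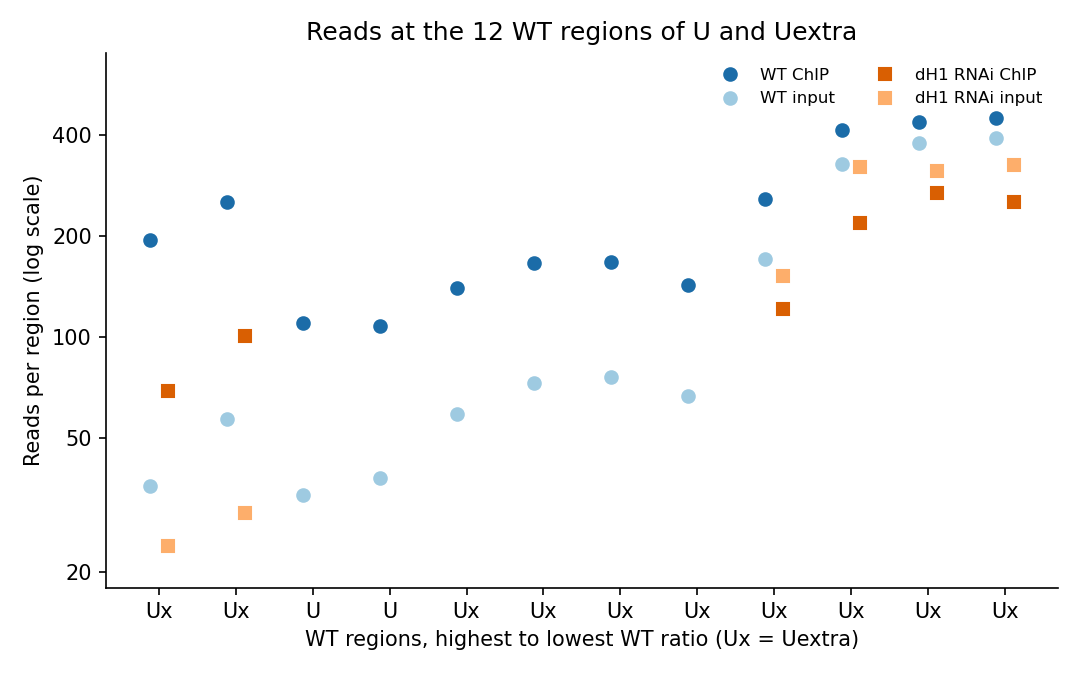
Reads at the 12 WT regions of U and Uextra, ordered from the highest to the lowest WT ratio, on a log scale. Circles are the WT ChIP and WT input counts of each region, and squares are the dH1 RNAi counts at the 6 regions that overlapped a dH1 RNAi region; at each of those 6 the dH1 RNAi ChIP count lies below the WT ChIP count, and the last 3 regions have input counts near their ChIP counts.

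An overlap of at least 1 bp with a region of the dH1 RNAi list was found for 6 of these 12 WT regions (50%, 21.1 to 78.9), against 72.4% of the whole WT list. All 6 lay on Uextra, and they were the 2 regions with the highest WT ratio and the 4 with the lowest. None of the 4 regions with WT ratios between 2.13 and 2.37 had such a partner, and neither did the pair on U. The distance from these 6 unshared regions to the nearest dH1 RNAi region ranged from 23.6 to 116 kb. The dH1 RNAi list holds no region with fewer than 69 ChIP reads, and a place with fewer does not appear in it.

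Where a WT region was shared, both dH1 RNAi counts were lower than in WT, with a lower quotient for ChIP than for input at all 6, although the intervals of the 2 quotients overlapped at 3 of them. At 3845901 to 3847000 of Uextra the dH1 RNAi region held 69 ChIP and 24 input reads, so its ratio was 2.88 (1.78 to 4.78), and ChIP reads were at 0.356 of WT (0.266 to 0.470) while input reads were at 0.667 (0.380 to 1.15). At 15327901 to 15329000 the dH1 RNAi counts were 101 and 30, a ratio of 3.37 (2.22 to 5.24), with ChIP reads at 0.399 of WT (0.314 to 0.505) and input reads at 0.526 (0.327 to 0.833), so that at both of these regions the intervals overlapped. Those ratios were also the highest of all 376 dH1 RNAi regions of unplaced sequence.

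At the 4 shared regions with more WT input reads the dH1 RNAi ChIP counts were 121, 218, 252 and 269, at 0.471 to 0.616 of WT. Their input counts were 152, 320, 325 and 311, at 0.823 to 0.979 of WT. The intervals of the 2 quotients overlapped at 13998451 to 13999150 (0.527 to 0.718 for ChIP and 0.706 to 0.958 for input) and were apart at the other 3. Each of these 4 had more ChIP than input reads in WT cells and fewer after dH1 RNAi, in counts not scaled by depth. At 13998451 to 13999150 there were 437 over 378 and then 269 over 311. All 297 regions of the WT list had more ChIP than input reads, so the WT side was set by the list. In the dH1 RNAi list 96.8% of the unplaced regions and 59.6% of all regions had fewer ChIP than input reads. Only at 22426201 to 22427150 did the interval of the ratio lie above 1 in WT (1.09 to 1.46) and below 1 after dH1 RNAi (0.571 to 0.812). Elsewhere an interval in WT or after dH1 RNAi held 1, as after dH1 RNAi at 13998451 to 13999150 (0.732 to 1.02). Divided by the input quotient, the ChIP quotient of the 6 pairs had a median of 0.608 and ran from 0.530 to 0.758. The 209 pairs in other sequence had a median of 0.562 (interquartile range 0.471 to 0.664), so the 6 unplaced pairs lay within the range of the rest, 0.239 to 1.25. Any difference in depth between the libraries is contained in these quotients and could not be removed.

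The 376 dH1 RNAi regions of unplaced sequence were mostly regions with many input reads and a ratio under 1. Their median held 228 ChIP reads (interquartile range 179 to 287) and 365 input reads (253 to 501), and their median ratio was 0.607 (0.590 to 0.623). The other 1187 regions of the list had medians of 111 ChIP and 104 input reads and a ratio of 1.01 (0.990 to 1.03). At 364 of the 376 regions the ChIP held fewer reads than the input (96.8%, 94.5 to 98.3), against 59.6% of the whole dH1 RNAi list. The input held more than 200 reads at 322 (85.6%, 81.7 to 89.0), against 37.9% of the whole list.

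Taken region by region, the interval of the ratio lay below 1 at 314 of the 376 regions, held 1 at 58 and lay above 1 at 4. In the whole dH1 RNAi list of 1563 regions it lay below 1 at 599, held 1 at 791 and lay above 1 at 173. The 4 unplaced regions with an interval above 1 lay on Uextra. They were the shared pair already described, and 2 regions that overlapped neither a WT nor a directly called region: 5950401 to 5951400, with 118 ChIP and 81 input reads and a ratio of 1.46 (1.09 to 1.96), and 18973301 to 18974200, with 112 and 82 and a ratio of 1.37 (1.02 to 1.84). On U the highest ratio was 1.10 (0.818 to 1.48), at 6330501 to 6331350 with 98 ChIP and 89 input reads, and the next was 1.00 at 9223501 to 9224350, with 104 of each. No U region had an interval above 1. The next highest on U were 0.931 at 8927401 to 8928450, 0.865 at 8228051 to 8229150 and 0.851 at 7315801 to 7316650, and each of their intervals held 1. The fifth highest on Uextra, 1.23 (0.966 to 1.57) at 1914101 to 1915300, came from 155 ChIP and 126 input reads.

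The lowest ratios of unplaced sequence belonged to regions with many input reads. At 9944251 to 9944800 of Uextra 278 ChIP reads stood over 585 input reads, a ratio of 0.475 (0.410 to 0.549), and at 13976951 to 13977650 the counts were 290 and 602. On U the lowest ratio was 0.492 (0.441 to 0.550), at 5296801 to 5297650 with 483 ChIP and 981 input reads. The next lowest on U were 0.50 at 9626051 to 9626600, with 256 and 512 reads, and 0.516 at 1092801 to 1093850, with 246 and 477, and the third lowest on Uextra was 0.483 at 9283101 to 9284200, with 337 and 698. The list holds only what passed the caller, whose minimum fold of 3 was set per window. Places that did not pass are not seen, and how this limit bears on the low edge of the ratios was not tested.

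**Figure D2:**
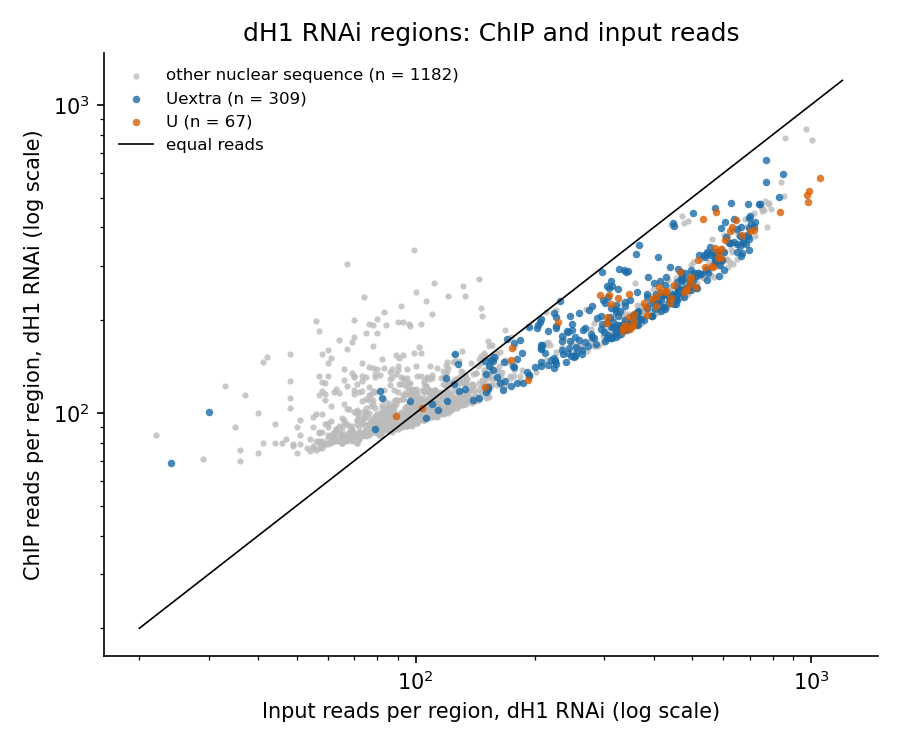
ChIP reads against input reads of each dH1 RNAi region, both on log scales, with U in orange, Uextra in blue and other nuclear sequence in grey. Most points of U and Uextra lie below the line of equal reads and to the right of the grey cloud, and the grey points with many input reads lie on the same band.

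The Het scaffolds, which hold heterochromatin assigned to a chromosome but not joined to its arm, had medians close to those of unplaced sequence but a wider mix of regions. Their 68 dH1 RNAi regions had a median of 361 input reads and a median ratio of 0.622 (0.577 to 0.780), and 66.2% of them (53.7 to 77.2) had more than 200 input reads, below the 85.6% of unplaced sequence with intervals apart. The ChIP held fewer reads than the input at 67.6% of them (55.2 to 78.5), against 96.8% in unplaced sequence, and the interval of the ratio lay above 1 at 17 of the 68. The 5 large chromosome arms held 1092 regions with a median of 103 input reads and a median ratio of 1.01. The intervals of the median ratio overlapped between unplaced sequence and the Het scaffolds and did not overlap between unplaced sequence and the arms.

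With regions grouped by input count, the ratio of unplaced sequence was close to that of other nuclear sequence above 400 input reads. It was lower in the range up to 200, which is wide and does not match input counts closely. In the range of 401 to 500 input reads the median ratio was 0.544 (0.531 to 0.560) at 76 unplaced regions and 0.535 (0.530 to 0.548) at 86 others. Between 301 and 400 input reads it was 0.589 (0.579 to 0.634) at 86 unplaced regions and 0.566 (0.558 to 0.574) at 77 others. The intervals in this range did not overlap. Between 501 and 600 it was 0.548 at 45 and 0.538 at 35, and above 600 it was 0.569 at 49 and 0.598 at 35, with overlapping intervals in both ranges.

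At up to 200 input reads the 54 unplaced regions had a median ratio of 0.898 (0.814 to 0.936) and the 916 others 1.08 (1.07 to 1.11). Between 201 and 300 the 66 unplaced regions had 0.703 (0.664 to 0.761) and the 33 others 0.635 (0.619 to 0.696), with intervals that overlapped. Within the range up to 200 reads the input counts of the 2 groups were not matched further. The ratio fell with input reads in the other sequence of the list too (Spearman rank correlation -0.898). Whether the lower ratio of unplaced sequence there goes beyond a difference in input counts was not tested. Input counts also form the denominator of the ratio, so that the 2 quantities are not independent. Across the 376 unplaced regions the rank correlation (Spearman) of ChIP with input reads was 0.931 and that of the ratio with input reads was -0.682, as a description of regions that share their libraries.

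**Figure D3:**
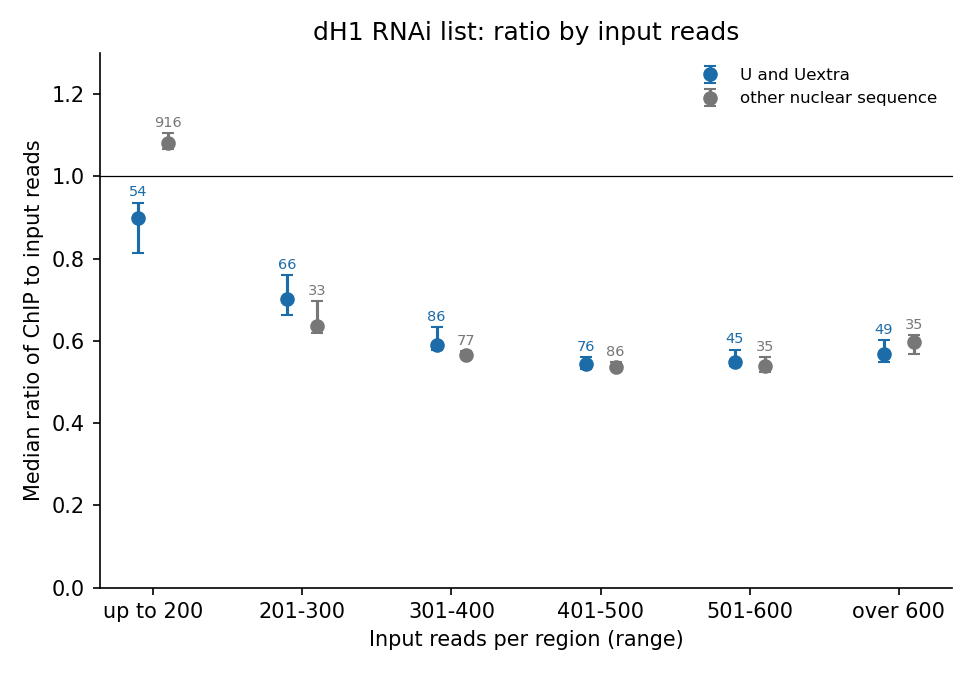
Median ratio of ChIP to input reads of dH1 RNAi regions in 6 ranges of input reads, for U and Uextra (blue) and other nuclear sequence (grey). Bars are 95% intervals of the median and the small numbers are regions; the blue point lies below the grey one at up to 200 input reads, and the intervals do not overlap there or at 301 to 400 and overlap in the other ranges.

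Uextra was the denser of the 2 scaffolds in the dH1 RNAi list. Over its length of about 29 Mb it held 10.7 dH1 RNAi regions per Mb (9.50 to 11.9), and U, of about 10 Mb, held 6.67 (5.17 to 8.47), so that the density on Uextra was 1.60 times that on U (1.22 to 2.11). In the WT list the densities were 0.345 and 0.199 per Mb, a quotient of 1.73 with a wide interval (0.369 to 16.3), and in the direct list 1.38 and 0.597, a quotient of 2.31 (0.973 to 6.67). In both of these lists the interval held 1.

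The share of unplaced regions that lay on Uextra was alike in the 3 lists: 83.3% of the WT regions (51.6 to 97.9), 82.2% of the dH1 RNAi regions (77.9 to 85.9) and 87.0% of the direct regions (73.7 to 95.1), with overlapping intervals. Together the dH1 RNAi regions covered 82.7 kb of U and 302.2 kb of Uextra. The WT regions covered 1.2 kb and 8.65 kb.

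U regions of the dH1 RNAi list were wider and had more input reads than Uextra regions, by medians whose intervals touched for width and input reads and did not overlap for ChIP reads. The median width was 1100 bp on U (1000 to 1200) and 950 bp on Uextra (900 to 1000). The median input count was 439 (384 to 494) against 348 (325 to 384) and the median ChIP count 247 (236 to 270) against 219 (206 to 232). The median ratio was 0.576 (0.554 to 0.594) on U and 0.619 (0.602 to 0.645) on Uextra, and these 2 intervals did not overlap. Within ranges of input reads this difference was not seen. Between 301 and 400 input reads the medians were 0.587 on U and 0.590 on Uextra, and between 401 and 500 they were 0.552 and 0.541. The intervals overlapped in every range except 201 to 300, where U had only 2 regions and no interval (0.847 against 0.701).

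The widest regions of U were 3450 bp at 1094201 to 1097650, with 423 ChIP and 645 input reads, 3050 bp at 5685951 to 5689000, with 390 and 624, and 2650 bp at 5289751 to 5292400, with 526 and 988. The widest of Uextra was 2400 bp at 380001 to 382400. It also had the most ChIP reads of all unplaced regions, 660 over 768 input reads, a ratio of 0.859 (0.773 to 0.955). The next was 597251 to 599300 of Uextra, with 598 ChIP and 849 input reads, followed by 8788001 to 8789600 with 560 and 771. The third widest of Uextra, 1950 bp at 719751 to 721700, had 501 and 832. At the other end, 24 of the 376 regions had the smallest width of the list, 550 bp, against 121 of the 1563 regions of the whole list.

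Regions were spread unevenly along both scaffolds. Of 10 whole 1 Mb stretches of U, that between 9 and 10 Mb held 18 dH1 RNAi regions and the one between 2 and 3 Mb held 1. Of 29 such stretches of Uextra, that between 14 and 15 Mb held 23 and the one between 21 and 22 Mb held 2. The median was 6 regions on U and 11 on Uextra. In the dense Uextra stretch the median input count was 481 and the median ratio 0.558. In the stretch between 28 and 29 Mb, with 21 regions, they were 243 and 0.658.

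Close neighbours were more frequent on U than on Uextra and less frequent in unplaced sequence than in the rest of the dH1 RNAi list. Another dH1 RNAi region lay within 10 kb of 26 of the 67 regions of U (38.8%, 27.1 to 51.5) and of 68 of the 309 of Uextra (22.0%, 17.5 to 27.0), against 53.2% of the whole dH1 RNAi list. The share was 41.2% (29.4 to 53.8) on the Het scaffolds and 63.0% (60.1 to 65.9) on the arms. Neighbours on the joined scaffolds need not be neighbours in the genome, because the lists do not mark where one piece ends and the next begins.

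The median gap to the next region was 71.2 kb on U and 58.5 kb on Uextra. Gaps under 1 kb numbered 10 among the 66 on U and 6 among the 308 on Uextra, against 183 among the 1548 of the whole list. Joining regions at most 10 kb apart left 52 groups on U and 274 on Uextra. Of these groups 11 and 33 held more than 1 region, and nearly all were pairs (9 and 31). Regions with a neighbour had a median of 434 input reads (382 to 461) and a ratio of 0.575 (0.559 to 0.593). Those without had 346 (325 to 378) and 0.623 (0.603 to 0.647). These values pool U and Uextra, which differed in their share of neighbours, and within each scaffold the intervals overlapped. On U the median ratio was 0.556 (0.538 to 0.593) with a neighbour and 0.586 (0.554 to 0.634) without, and on Uextra 0.580 (0.560 to 0.619) and 0.634 (0.608 to 0.660). The median input count was 498 (413 to 575) and 378 (335 to 493) on U, and 375 (337 to 459) and 338 (315 to 378) on Uextra.

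**Figure D4:**
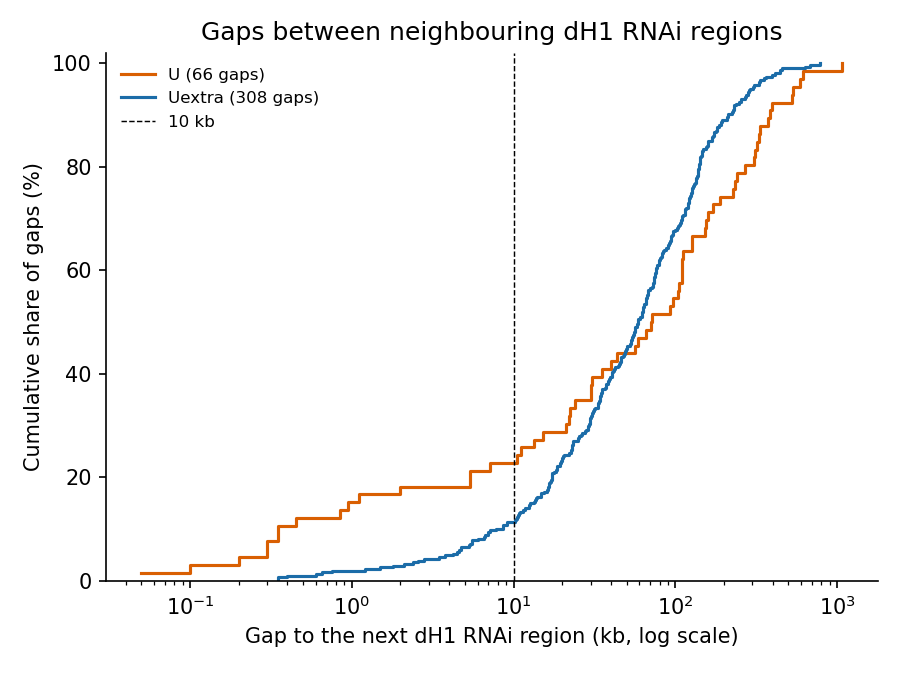
Cumulative share of the gaps between neighbouring dH1 RNAi regions on U (66 gaps, orange) and Uextra (308 gaps, blue), with gap length on a log scale. The curve of U rises earlier, with 10 gaps under 1 kb against 6 on Uextra, and crosses that of Uextra at longer gaps.

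The largest group lay between 5289751 and 5300100 of U, where 5 dH1 RNAi regions stood within 10.4 kb. They held 526, 449, 509, 483 and 578 ChIP reads and between 835 and 1053 input reads, and their ratios were between 0.492 and 0.549. The input count of 1053, at 5298751 to 5300100, was the highest of any unplaced region. The 100 kb that holds this group was the fullest 100 kb stretch of either scaffold, and the next held 4 regions each, among them 9600001 to 9700000 of U and 700001 to 800000 of Uextra.

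The second group was 3 regions between 1141551 and 1144400 of U, with 208 to 343 ChIP reads and ratios of 0.542 to 0.602. On Uextra the largest groups were 3 regions between 13383951 and 13393000, with ratios of 0.547 to 0.680, and 3 between 5696551 and 5715450, with ratios of 0.582 to 0.909. The WT list had no 2 regions within 10 kb of each other in unplaced sequence (0 of 12, which allows a share of up to 25%), against 23.2% of the whole WT list.

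Overlap with WT regions was rare in the dH1 RNAi list. Of the 376 unplaced dH1 RNAi regions 6 overlapped a WT region (1.60%, 0.588 to 3.44), against 13.7% of the whole dH1 RNAi list, and none of the 67 on U did (0 of 67, which allows up to 4.48%). A directly called region was overlapped by 48 (12.8%, 9.56 to 16.6), against 4.41% of the whole list. No unplaced dH1 RNAi region overlapped both, and 322 (85.6%) overlapped neither. By the shares of the whole list given above, most regions of the whole list overlapped neither as well. The number for the whole list was not counted, so the 322 are not read as particular to unplaced sequence.

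The dH1 RNAi regions that also overlapped a direct region were wider and had higher ratios to input than those that overlapped neither. Their median width was 1225 bp against 950 bp, their median ChIP count 343 against 223, their median input count 429 against 365 and their median ratio 0.802 (interquartile range 0.646 to 0.922) against 0.590 (0.545 to 0.692). The dH1 RNAi ChIP library enters both calls, and no test of this difference was made.

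Most directly called regions lay within a dH1 RNAi region and far from any WT region. Of the 46 direct regions 45 overlapped a dH1 RNAi region (97.8%, 88.5 to 99.9), against 97% of the whole direct list. The exception was 5302501 to 5303150 of U. None overlapped a WT region (0 of 46, which allows up to 6.52%), as in the whole direct list (0%), and the nearest WT region was between 115 and 3524 kb away. At the 45 shared places the lists gave the dH1 RNAi ChIP library nearly the same count, the direct list at 0.990 to 1.24 of the dH1 RNAi list with a median of 1.02, although the reads were extended to 50 bp in the direct list and to 200 bp in the other.

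At no unplaced direct region did the dH1 RNAi ChIP hold more reads than the WT ChIP. The ratio ran from 0.714 to 1.00 with a median of 0.865 (0.787 to 0.922), and 44 of the 46 were below 1, against 93.9% of the whole direct list. The interval of the ratio lay below 1 at 23 regions and held 1 at 23. In the whole direct list of 66 regions it lay below 1 at 40 and held 1 at 26, and in the 20 regions of other sequence it lay below 1 at 17. Since the read counts are not scaled by depth, a ratio of 1 is not a point of equal marking.

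The WT ChIP count is the denominator of this ratio, so the values by count that follow are a description of the list, and no trend is read from them. At the 15 direct regions with 147 to 248 WT ChIP reads the median ratio was 0.949 (range 0.859 to 1.00), at the 12 with 284 to 467 it was 0.874 (0.756 to 0.986), and at the 19 with 527 to 842 it was 0.749 (0.714 to 0.998). The rank correlation (Spearman) of the ratio with WT ChIP reads was -0.847 over the 40 regions of Uextra and 0.314 over the 6 of U. The counts were equal at 28615101 to 28616100 of Uextra, with 232 reads in each ChIP, and at 13785001 to 13785950, with 147 in each. The ratio was 0.990 at 28501351 to 28502400, 0.986 at 3204301 to 3205300 and 0.983 at 13494701 to 13495650 of Uextra, and all 5 intervals held 1. At the Uextra region with the most reads, 380301 to 382050, the dH1 RNAi ChIP held 663 and the WT ChIP 842, a ratio of 0.787 (0.710 to 0.873). The lowest ratio was 0.714 (0.633 to 0.805), at 11153701 to 11154250 of Uextra, with 469 and 657 reads, followed by 0.717 at 720251 to 721250 and 0.728 at 18804501 to 18805250. Other large Uextra regions were 597401 to 598700 with 620 and 789 reads, 8788101 to 8789250 with 581 and 737, and 3080401 to 3081650 with 464 and 527, at ratios of 0.786, 0.788 and 0.880.

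Among the 19 regions with the most WT ChIP reads, the pair in the dense group of U stood apart. At 5298701 to 5302100 of U the dH1 RNAi ChIP held 574 reads and the WT ChIP 575, a ratio of 0.998 (0.888 to 1.12), and at 5289451 to 5297800 the counts were 554 and 573, a ratio of 0.967 (0.859 to 1.09). The other 3 U regions of that size were 9150751 to 9151750 with 427 and 545 reads, 1095651 to 1096350 with 430 and 574, and 9457251 to 9458000 with 407 and 558. Their ratios were 0.783, 0.749 and 0.729. The sixth direct region of U, the one without a dH1 RNAi counterpart, had 277 and 339 reads, a ratio of 0.817 (0.695 to 0.961). Of the 11 direct regions that the caller gave its lowest FDR in this list, 0.001, 6 lay in unplaced sequence, this pair and 4 on Uextra.

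**Figure D5:**
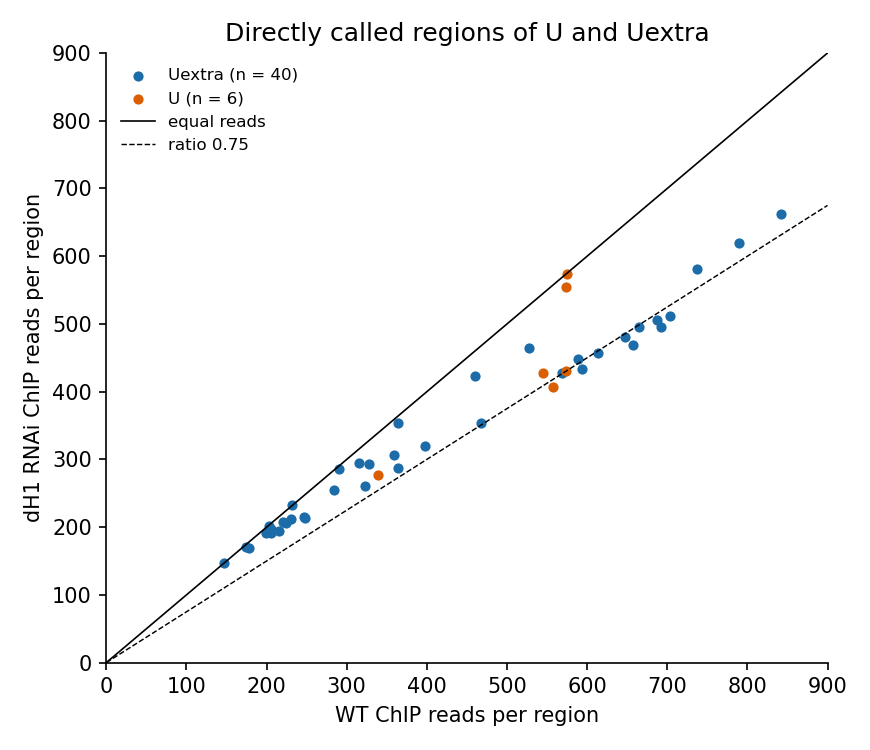
ChIP reads of dH1 RNAi cells against those of WT cells at the directly called regions of U (orange, 6) and Uextra (blue, 40), with a line of equal reads and a dashed line at a ratio of 0.75. No point lies above the line of equal reads, the points with few reads lie near it, and the pair of U points near 575 WT reads stands above the others of that size.

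The same stretch of U shows what a count in these lists covers. The direct region at 5289451 to 5297800 was 8350 bp wide, the widest in unplaced sequence, and overlapped 4 dH1 RNAi regions whose ChIP counts in the same library sum to 1967. Its own dH1 RNAi ChIP count was 554. A count in the direct list therefore did not cover this whole region. At 1095651 to 1096350 of U a direct region of 700 bp had 430 dH1 RNAi ChIP reads. The dH1 RNAi region of 3450 bp around it had 423 reads of the same library. Counts in both lists are thus those the caller gave, and need not be all reads between the printed positions. Counts of regions of different widths were not divided by width here.

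The input of dH1 RNAi cells at the same places was close to the WT ChIP in reads. At the 45 direct regions with a dH1 RNAi counterpart the dH1 RNAi input had a median of 368 reads, and the WT ChIP held more reads than it at 13. The quotient of WT ChIP to dH1 RNAi input reads had a median of 0.979 and reached 1.26. It was lowest, 0.546, at 5298701 to 5302100 of U, where the input count of 1053 stood beside 575 WT ChIP reads. WT ChIP reads were not scarce at the direct regions. At 43 of the 46 they were at least the median of the 12 WT regions of unplaced sequence, 180.5. At 21 they were more than the highest of those 12, 448. Reads were extended to 50 bp in the direct list and to 200 bp in the WT list. The 20 direct regions of other sequence had a higher median of WT ChIP reads, 615 against 364 in unplaced sequence. Input reads of WT cells at the direct regions were not analysed here.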

How the data were processed

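γH2AvD ChIP and input libraries of WT and dH1 RNAi S2 cells were compared through 3 deposited region lists. The submitters' processing notes name the dm3 build, FastQC 0.10.1 and Bowtie 0.12.5. Regions, per the file headers, were called by the CCAT caller of PeakRanger 1.16 in windows of 500 bp moved by 50 bp, with at least 4 reads and a fold of 3 in a window and an FDR cut-off of 0.1, and reads were extended to 200 bp (50 bp in the direct list). The authors deposited, for each region, whole-number counts of ChIP and control reads with no normalization, and an FDR of the p-value type. These counts need not be all reads between the printed positions of a region. In the direct list 3 regions above the cut-off were left out, 1 of them on Uextra.

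For reads with several matches, the placing is not stated in the sources used here. The lengths of U and Uextra are those of the dm3 assembly and not from the lists. Positions are in dm3, counted from 1. The gene column was empty and no annotation was used.

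Ratios of ChIP to control reads, not scaled, carry exact 95% intervals for 2 Poisson counts. Shares have exact Clopper-Pearson intervals, medians have order-statistic intervals, and densities have exact Poisson intervals. A count of 0 was taken to allow 3 regions of the total. Overlap meant at least 1 bp, with the partner of largest overlap where there were several. No count test across libraries was made, since each group had 1 library, and the depth is unknown. Named were all WT regions and all direct regions of U, and otherwise, on U and Uextra apart, the 5 highest and 3 lowest ratios, the 3 widest regions, the 3 with most reads, and the fullest groups and 100 kb stretches. The widest direct regions of the dense U group and values by input range were described after they were seen. The members, lists and limits were chosen with earlier results of these data known. Alternatives were ratio, read and distance limits, merging, covered length and stricter overlap. The interval code was tested on made-up regions. Computations used scipy 1.17.1, pandas 2.3.3, matplotlib 3.10.9, numpy 2.4.6 and Python 3.11.15.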

Additional observations from a re-analysis of the deposited data

How the results depend on the processing

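No paired analysis was possible because neither condition was replicated. For 38 results 85 alternative values were computed, of which 18 moved, numbers of regions by more than 1.5 times and shares and medians beyond their 95% interval, and 67 did not; the cause was not tested beyond the regions that each alternative removes or joins. With at most 200 control reads, 54 dH1 RNAi and 4 direct regions of unplaced sequence were left, their shares of the lists were 5.57% and 100%, Uextra held 88.9% and 100% of them, and the median ratio was 0.891 on U and 0.898 on Uextra in the dH1 RNAi list and 0.974 on Uextra in the direct list. With a ratio of at least 1, 12 dH1 RNAi regions were left (1.90% of that list). At or above the median ChIP count of the list, 5 WT and 18 direct regions were left. Merging under 10 kb raised the unplaced share of the dH1 RNAi list to 31.6%. By covered base pairs Uextra held 72.1% of the unplaced direct list. A neighbour within 50 kb was found for 67.2% of U and 68.6% of Uextra regions of the dH1 RNAi list, so that the difference between the scaffolds was not seen at that distance, and one within 5 kb for 12.6% on Uextra. Depth is unknown, so ratios of different lists, and their quotients at shared regions, contain an unknown factor, and the 12 WT regions give wide intervals.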

Other observations

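1 region of Uextra in the direct list had an FDR above the cut-off, 0.124. At 12442101 to 12442950 the dH1 RNAi ChIP held 257 reads and the WT ChIP 319, a ratio of 0.806, and with this region the direct list has 47 regions in unplaced sequence. A dH1 RNAi region called over input lay across it. The same pair of ChIP and input counts was found at 2 of the 376 dH1 RNAi regions of unplaced sequence, and at none of the 12 WT or 46 direct regions. Regions that share only part of their reads would not show in this count.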
